A study of Homo sapiens with 12 samples.

Results

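AKR1C3 and 9 other enzymes that convert steroid hormones were followed in human prostate cancer cells treated with a small interfering RNA (siRNA) against GATA2. The members were the array probes assigned to AKR1C3, HSD17B4, HSD17B10, HSD17B6, HSD17B11, HSD17B12, SRD5A1, SRD5A3, STS or HSD11B2 that were detected (detection p under 0.05) on at least 3 of 12 arrays. Of the 10 listed enzymes, 8 had a named probe and all 8 were detected, through 11 probes, among 11933 genes and 22539 probes kept in all. SRD5A3, which also works in the making of dolichol, and STS, which releases steroids from their sulfates, had no named probe and were not analysed here.

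Androgens are made from weaker precursors by a short chain of reductases and dehydrogenases that prostate cells can carry themselves. AKR1C3, an aldo-keto reductase, reduces androstenedione to testosterone, and SRD5A1, a steroid 5-alpha-reductase, turns testosterone and related steroids into their 5-alpha-reduced forms. Many of the numbered HSD17B enzymes run in the oxidizing direction, which weakens androgens and estrogens, and several also act on fatty acids. Raised AKR1C3 is a known feature of prostate cancer that grows with little androgen and of cells resistant to enzalutamide, an antagonist of the androgen receptor.

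RNA was measured on Illumina expression arrays in 4 groups of 3 arrays, 1 array per sample. Both lines derive from LNCaP, an androgen-sensitive prostate cancer line. The groups were Abl siGATA2, Abl siNT, MDVR siGATA2 and MDVR siNT, where siNT is a non-targeting control. The question addressed was which RNAs change when GATA2, a transcription factor that assists the androgen receptor, is targeted. Abl (LNCaP-abl) cells grew without phenol red in 10% serum stripped with charcoal, a step that removes most steroids. MDVR cells were parental LNCaP cells kept for over a year with 25 microM enzalutamide in 10% fetal bovine serum, with 10 microM present during the experiments. Line, serum and enzalutamide therefore differed together. All 4 groups were transfected by the same lipid reagent with 25 nM siRNA, a single siRNA is named for GATA2, and RNA was taken after 72 h. The labels do not say whether the samples of a group were separate cultures, so p-values measure the spread between these samples only.

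The upstream sequences of AKR1C3 are shown because it changed most among the members and because the siRNA was aimed at a GATA factor, and that of AKR1C2, a close relative, is shown beside them. Each is the 250 bases before an annotated transcription start, taken from RefSeq on GRCh38.p14 and read 5′ to 3′ on the gene's strand. Capitals mark matches to the GATA motif, searched on both strands as GATA with T or A before it and A or G after it.
AKR1C3, chr10:5048531-5048780, plus strand: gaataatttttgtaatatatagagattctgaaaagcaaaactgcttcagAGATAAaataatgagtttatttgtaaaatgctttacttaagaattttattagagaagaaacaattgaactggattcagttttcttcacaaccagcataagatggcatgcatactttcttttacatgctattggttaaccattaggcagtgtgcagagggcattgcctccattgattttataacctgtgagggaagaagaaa
AKR1C3, chr10:5094164-5094413, plus strand: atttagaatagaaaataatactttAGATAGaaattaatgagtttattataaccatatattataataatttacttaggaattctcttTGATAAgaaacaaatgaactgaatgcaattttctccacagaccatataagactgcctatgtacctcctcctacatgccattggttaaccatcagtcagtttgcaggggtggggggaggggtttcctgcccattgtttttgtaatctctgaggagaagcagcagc
AKR1C2, chr10:5003858-5004107, minus strand: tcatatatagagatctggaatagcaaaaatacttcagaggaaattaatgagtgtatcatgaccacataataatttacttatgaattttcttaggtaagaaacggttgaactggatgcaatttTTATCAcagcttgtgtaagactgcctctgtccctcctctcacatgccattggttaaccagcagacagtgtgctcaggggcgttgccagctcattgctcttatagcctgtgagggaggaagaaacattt
The upstream AKR1C3 window holds 1 match, AGATAA, at 201 to 196 bases before the start. The downstream AKR1C3 window holds 2, AGATAG at 226 to 221 and TGATAA at 164 to 159 bases before the start. The AKR1C2 window holds TGATAA on the opposite strand, printed as TTATCA, at 128 to 123 bases before its start. Among all 35116 windows of this length 22.3% hold at least 1 such match and 4.96% hold 2 or more. The windows of HSD17B4, HSD17B10, HSD17B11 and SRD5A1 hold none, and those of HSD17B12, HSD17B6 and HSD11B2 were not used here. Of the members with no named probe, SRD5A3 has 2 matches in its window, and STS has 1 and 3 matches in 2 of its windows. The windows of AKR1C3, AKR1C2, HSD17B4, HSD17B10, HSD17B11 and SRD5A1 hold neither the androgen receptor half-site AGAACA (12.4% of all windows) nor the antioxidant response element TGACNNNGC (10.9%), both searched on both strands. The half-site lies in 2 STS windows, and the antioxidant element in 1 window each of SRD5A3 and STS. A match describes the letters only, and no binding was measured here. An absence holds for these 250 bases only, since sequence farther away was not searched.

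Across the series the arrays were alike in quality, with 19103 to 20513 probes detected per array, 40.4% to 43.3% of 47323. Normalized log2 intensities of arrays from the same group correlated at r = 0.989 to 0.992 over probes, and those from different groups at 0.928 to 0.985. The GATA2 probe (ILMN_2102670) read log2 8.43, 8.58 and 8.48 in Abl siGATA2 and 9.12, 8.80 and 8.82 in Abl siNT, with no overlap. It read 9.09, 8.80 and 8.86 in MDVR siGATA2 and 8.88, 9.16 and 9.26 in MDVR siNT, and these overlap. GATA2 fell by 0.41 (SE 0.12, adjusted p = 0.0101, limma) in Abl, a call lost when Abl siNT replicate 1 was left out (-0.31, adjusted p = 0.0576). Its change in MDVR was -0.18 (adjusted p = 0.297), so the library labels of MDVR are not checked by this probe. Of 11 luminal prostate markers 10 had a named probe and 7 of these were detected on all 12 arrays, while KLK2 and KLK3 were detected on 3. The KLK2 and KLK3 means were highest in MDVR siNT, at log2 6.36 and 5.46, beside 4.49 to 4.71 in the other groups. Among markers of other cell types with a named probe, COL1A2 of stroma was detected on no array, CD14 of monocytes on 2, CHGA of neuroendocrine cells on 3 and ENO2 on 12.

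AKR1C3 rose under siGATA2 in both lines, more on the log2 scale in Abl, where it started near the detection limit. Its normalized log2 intensity (probe ILMN_1713124) was 7.46, 7.96 and 7.76 in Abl siGATA2, against 5.29, 5.47 and 5.34 in Abl siNT. In MDVR it was 8.90, 9.11 and 9.15 under siGATA2, against 8.15, 7.74 and 7.94 under siNT. Within each line every siGATA2 array lay above every siNT array. The rise was 2.36 log2 units in Abl (SE 0.14, 5.14-fold, limma adjusted p = 3.36e-10) and 1.11 in MDVR (SE 0.14, 2.16-fold, adjusted p = 1.42e-05). Ordered by change, AKR1C3 had rank 9 of 11933 genes in Abl and rank 100 in MDVR, under this processing only. These sizes depend on the background correction, as the raw group means had ratios of 2.19 in Abl and 1.78 in MDVR. In bulk RNA, a change in the number of cells with a transcript and a change in the amount per cell cannot be told apart.

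The 4 groups kept the order MDVR siGATA2, MDVR siNT, Abl siGATA2 and Abl siNT in mean AKR1C3 log2 intensity, at 9.05 ± 0.13, 7.94 ± 0.20, 7.73 ± 0.25 and 5.36 ± 0.09 (SD, n = 3 each). The arrays of the middle pair overlap, so that AKR1C3 in Abl siGATA2 reached the range it had in MDVR siNT. On the Abl siNT arrays the probe passed detection by little, with detection p of 0.0208, 0.0182 and 0.0221, and its log2 intensity stood close to the lowest of any detected probe, 5.02 to 5.13. The AKR1C genes are near-identical neighbours, so the probe may read relatives of AKR1C3 as well.

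**Figure D1:**
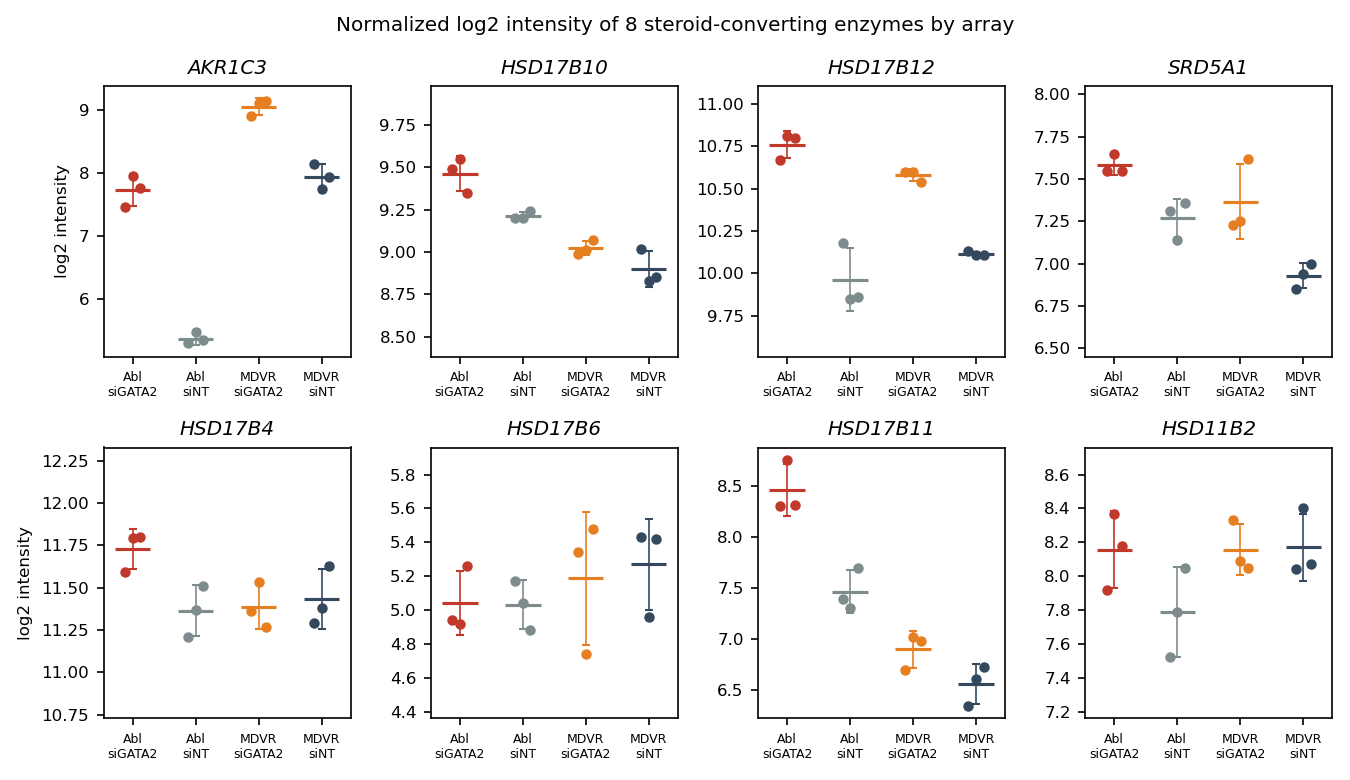
Normalized log2 intensity of the 8 measured enzymes on each array (points), with the group mean (horizontal line) and SD (bar, n = 3 arrays), 1 panel per gene with its own axis. For AKR1C3, MDVR siGATA2 lies alone at 8.90 to 9.15 and Abl siNT alone at 5.29 to 5.47, while the HSD17B6 and HSD11B2 panels show groups that overlap within each line.

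The AKR1C3 response differed between the lines in the test of the difference, and this result depended on the background correction. The MDVR effect minus the Abl effect was -1.25 (SE 0.20, 95% interval -1.67 to -0.83, limma adjusted p = 0.000554). The raw intensities before any correction were 593.3, 658.1 and 749.8 in MDVR siGATA2, against 397.4, 340.6 and 389.0 in MDVR siNT. In Abl they were 265.6, 347.0 and 328.5 under siGATA2, against 138.9, 142.9 and 147.7 under siNT. On this scale the group means differed by 291 units in MDVR and by 171 in Abl, ratios of 1.78 and 2.19. With no background correction the difference in AKR1C3 effect was -0.25 (adjusted p = 0.276), with a larger offset of 50 it was -0.70 (adjusted p = 0.0152), and on the authors' processed log2 values it was -0.06 (adjusted p = 0.793). The rise within each line passed under all 3 of these settings, with 0.72 in MDVR and 0.78 in Abl on the authors' values. Those values were 8.29, 8.54 and 8.44 in Abl siGATA2, against 7.63, 7.66 and 7.64 in Abl siNT.

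**Figure D2:**
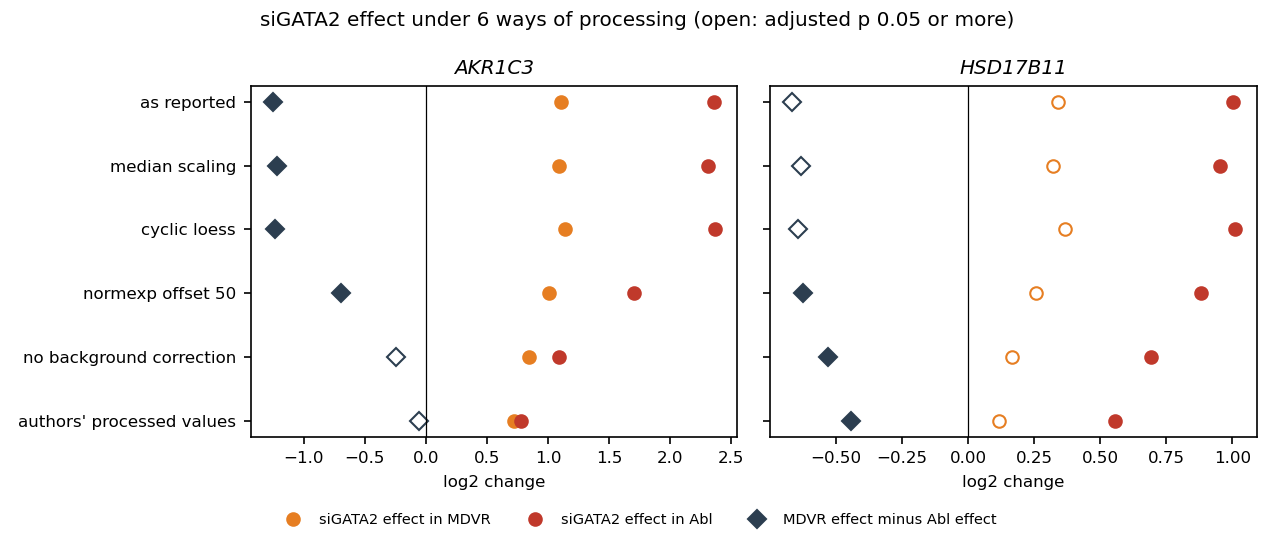
Log2 change of AKR1C3 (left) and HSD17B11 (right) under siGATA2 in MDVR and in Abl, and the MDVR effect minus the Abl effect, under 6 ways of processing the same arrays. Filled symbols have an adjusted p under 0.05 and open ones do not: the difference for AKR1C3 runs between -1.25 as reported and -0.06 on the authors' values, where it is open.

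Of the 4 HSD17B members that mainly oxidize steroids or fatty acids, HSD17B11, HSD17B4 and HSD17B10 rose in Abl and HSD17B6 was not called. HSD17B11, a dehydrogenase of lipid droplets that also oxidizes androgen metabolites, read 8.31, 8.76 and 8.32 in Abl siGATA2, against 7.39, 7.30 and 7.70 in Abl siNT. In MDVR it read 6.69, 7.02 and 6.98 under siGATA2, against 6.34, 6.61 and 6.72 under siNT. The Abl groups stand apart and the MDVR groups overlap. HSD17B11 rose by 1.00 in Abl (SE 0.16, 2.00-fold, limma adjusted p = 7.00e-05) and its change in MDVR was 0.34 (95% interval 0.01 to 0.67, adjusted p = 0.139). Its second probe (ILMN_1675117) gave 1.07 in Abl (adjusted p over all probes = 5.91e-05) and 0.35 in MDVR (adjusted p = 0.168). The MDVR effect minus the Abl effect for HSD17B11 was -0.66 (SE 0.22, adjusted p = 0.0839), which does not pass. It passed with no background correction (-0.53, adjusted p = 0.0187), with offset 50 (-0.62, adjusted p = 0.0449), on the authors' values (-0.44, adjusted p = 0.0119) and with the mean of both probes (-0.69, adjusted p = 0.0303).

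HSD17B4, the multifunctional enzyme of peroxisomal fatty acid oxidation that also oxidizes estradiol, read 11.59, 11.79 and 11.80 in Abl siGATA2, against 11.21, 11.37 and 11.51 in Abl siNT. Its MDVR values were 11.36, 11.53 and 11.27 under siGATA2, against 11.29, 11.38 and 11.63 under siNT. The Abl groups stand apart and the MDVR groups overlap. In Abl HSD17B4 rose by 0.36 (SE 0.10, limma adjusted p = 0.00837). Its change in MDVR was -0.05 (95% interval -0.25 to 0.16, adjusted p = 0.797), and the difference between the effects, -0.41, did not pass (adjusted p = 0.0890). HSD17B10, a mitochondrial dehydrogenase of isoleucine breakdown and a part of mitochondrial RNase P, read 9.49, 9.55 and 9.35 in Abl siGATA2, against 9.20, 9.20 and 9.24 in Abl siNT. Its rise of 0.25 (SE 0.09, adjusted p = 0.0329) was small. The call was lost in 10 of 28 alternatives, among them leaving out any of Abl siNT replicates 1, 2 and 3 (adjusted p = 0.0700, 0.0763 and 0.0556) or Abl siGATA2 replicates 2 and 3 (adjusted p = 0.0925 and 0.129). Its MDVR values were 8.99, 9.01 and 9.07 under siGATA2, against 9.02, 8.83 and 8.85 under siNT, which overlap, and the change was 0.12 (adjusted p = 0.354). The second HSD17B10 probe (ILMN_1691926) gave 0.29 in Abl (adjusted p over all probes = 0.0498) and 0.06 in MDVR.

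HSD17B12, a ketoacyl reductase of long-chain fatty acid elongation that can reduce estrone, rose in both lines. Its arrays read 10.67, 10.81 and 10.80 in Abl siGATA2, against 10.18, 9.85 and 9.86 in Abl siNT. In MDVR they read 10.60, 10.60 and 10.54 under siGATA2, against 10.13, 10.11 and 10.11 under siNT. No siGATA2 array overlapped a siNT array of its line. The rise was 0.80 in Abl (SE 0.09, 1.74-fold, limma adjusted p = 9.78e-07) and 0.46 in MDVR (SE 0.09, 1.37-fold, adjusted p = 0.000680). The second probe (ILMN_1702168) rose by 1.08 and 0.76 (adjusted p over all probes = 5.34e-07 and 6.60e-05). The difference between the effects for HSD17B12 was -0.34 (95% interval -0.59 to -0.08, adjusted p = 0.109), and it passed without Abl siNT replicate 1 (-0.45, adjusted p = 0.0141).

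SRD5A1 read 7.23, 7.25 and 7.62 in MDVR siGATA2, against 6.85, 6.94 and 7.00 in MDVR siNT, and it rose there by 0.43 (SE 0.13, 1.35-fold, limma adjusted p = 0.0213). The 3 MDVR siGATA2 arrays lay above the siNT arrays, with replicate 3 the highest. The call was lost without MDVR siGATA2 replicate 3 (0.31, adjusted p = 0.126) and without MDVR siNT replicate 2 (0.39, adjusted p = 0.0783). It was also lost with median scaling (adjusted p = 0.0637), with only the compared groups fitted (adjusted p = 0.0569) and in the test against a minimum of 1.5-fold. In Abl, SRD5A1 read 7.55, 7.65 and 7.55 under siGATA2, against 7.31, 7.14 and 7.36 under siNT, which also stand apart. The change there was 0.31 (95% interval 0.04 to 0.58, adjusted p = 0.0776) and did not pass. The difference between the 2 effects of SRD5A1 was 0.12 (95% interval -0.26 to 0.51, adjusted p = 0.762).

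HSD11B2, which inactivates cortisol, read 7.92, 8.37 and 8.18 in Abl siGATA2, against 7.52, 7.79 and 8.05 in Abl siNT. In MDVR it read 8.33, 8.09 and 8.05 under siGATA2, against 8.04, 8.40 and 8.07 under siNT. The groups overlap within both lines. Changes of HSD11B2 were 0.37 in Abl (95% interval 0.06 to 0.68, limma adjusted p = 0.0628) and -0.01 in MDVR (95% interval -0.32 to 0.29, adjusted p = 0.963). The Abl change passed without Abl siNT replicate 3 (0.50, adjusted p = 0.0206) and without Abl siGATA2 replicate 2 (0.49, adjusted p = 0.0292). HSD17B6, an oxidizing 3-alpha- and 17-beta-dehydrogenase that can restore dihydrotestosterone from androstanediol, was the only member probe not detected on all 12 arrays. It passed on 6, with log2 intensities of 4.74 to 5.48 and no group apart. Its changes were 0.01 in Abl (95% interval -0.43 to 0.45, adjusted p = 0.979) and -0.08 in MDVR (95% interval -0.52 to 0.36, adjusted p = 0.837). At this signal, near the lowest detected intensity, a fall could be hidden but a large rise could be measured, as for AKR1C3 in Abl.

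Counted together, 5 of the 8 members rose in Abl (AKR1C3, HSD17B11, HSD17B12, HSD17B4 and HSD17B10), none fell and 3 were not called. Among all genes 31.2% were called in Abl, 15.1% higher and 16.1% lower. The median change over the 8 was 0.37, beside 0.003 over all genes, and 8 of 8 had a positive change, as did 50.4% of all genes. For 6 of the 8 the arrays of the Abl groups did not overlap, as for 43.2% of all genes. In MDVR 3 members rose (AKR1C3, HSD17B12 and SRD5A1), none fell and 5 were not called, where 22.1% of all genes were called, 11.5% higher and 10.6% lower. There the median over the members was 0.23, beside -0.001 over all genes, and the same 3 had groups apart, as did 36.3% of all genes. A positive change was seen in 5 of 8 members in MDVR, beside 49.8% of all genes. AKR1C3 was the single member called in the difference between the effects, where 6.81% of all genes were called, 3.85% higher and 2.97% lower. With no background correction, or on the authors' values, AKR1C3 was not called in that difference and HSD17B11 was. That difference is built from the arrays of both within-line comparisons, so the 3 sets of counts are not independent.

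**Figure D3:**
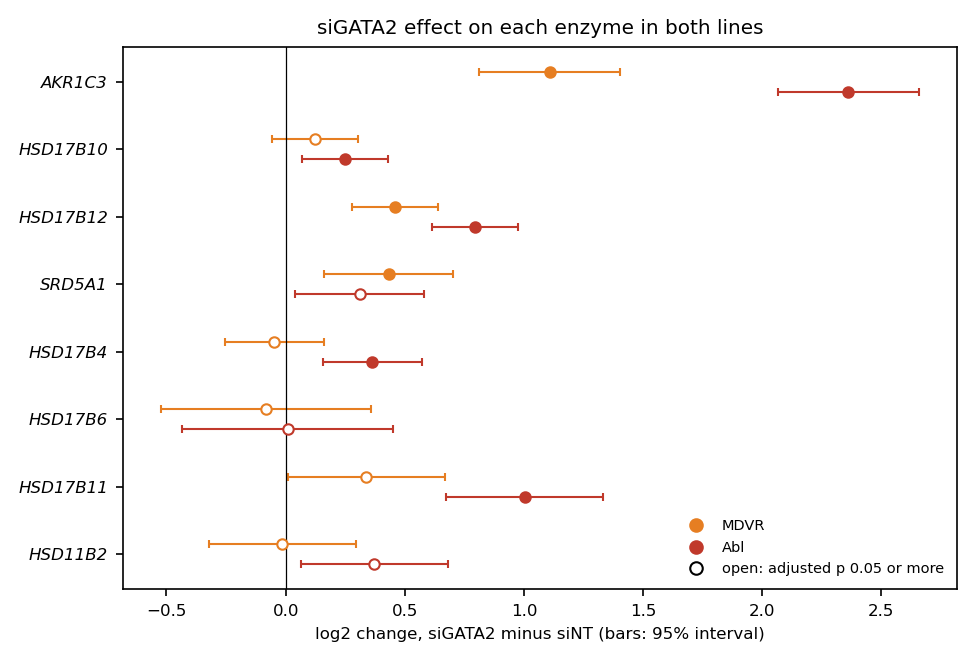
Log2 change (siGATA2 minus siNT) of each measured enzyme in MDVR and in Abl, with 95% intervals; filled points have an adjusted p under 0.05. AKR1C3 stands farthest right in both lines, at 1.11 in MDVR and 2.36 in Abl, and HSD17B6 lies close to 0 in both.

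Between the lines, AKR1C3 and HSD17B11 differed in opposite directions. AKR1C3 was higher in MDVR than in Abl by 1.33 under siGATA2 (limma adjusted p = 1.80e-07) and by 2.58 under siNT (5.97-fold, adjusted p = 1.35e-11). Values of this contrast also depended on background correction, with 0.83 and 0.89 as the smallest over the alternatives. HSD17B11 was lower in MDVR, with differences of -1.57 under siGATA2 (2.97-fold, adjusted p = 7.92e-08) and -0.90 under siNT (1.87-fold, adjusted p = 7.96e-05). HSD17B10 was lower in MDVR as well, with differences of -0.44 under siGATA2 (adjusted p = 0.000226) and -0.31 under siNT (adjusted p = 0.00480).

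Other members were called between the lines under a single siRNA. HSD17B4 was lower in MDVR under siGATA2 (-0.34, limma adjusted p = 0.00676) and stood at 0.07 under siNT (adjusted p = 0.579). SRD5A1 was lower in MDVR under siNT (-0.34, adjusted p = 0.0353) and its difference under siGATA2 was -0.22 (adjusted p = 0.164). That SRD5A1 call under siNT was lost without Abl siNT replicate 1 or 3 (adjusted p = 0.0833 and 0.109) and without MDVR siNT replicate 2 or 3 (adjusted p = 0.107 and 0.0661). HSD11B2 was higher in MDVR under siNT (0.39, adjusted p = 0.0348) although the arrays overlap, and it stood at 0.001 under siGATA2. The HSD11B2 call was lost without Abl siNT replicate 1 or 2 (adjusted p = 0.175 and 0.0719) and without MDVR siNT replicate 3 (adjusted p = 0.177). The probes of HSD17B12 disagree on the lines. The brighter one gave -0.18 under siGATA2 and 0.16 under siNT, neither called (adjusted p = 0.0822 and 0.141), and the second gave 0.30 and 0.62 (adjusted p over all probes = 0.0300 and 0.000122).

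In all, 1 member was higher and 3 were lower in MDVR under siGATA2, and 2 were higher and 3 lower under siNT. These counts, 4 and 5 of 8, are no result about the members, since 55.5% of all genes were called under siGATA2 (29.2% higher and 26.3% lower) and 51.1% under siNT (25.5% in each direction). For 5 and 4 members the arrays of the lines stood apart under siGATA2 and siNT, beside 60.9% and 56.7% of all genes. The direction of small differences also moves with the scaling. When arrays were scaled to a common median, the median over all genes moved by 0.106 under siGATA2 and 0.111 under siNT. Under siGATA2 the calls over all genes were then 4212 higher and 2380 lower, beside 3488 and 3134 as reported, and under siNT 3833 and 2247, beside 3047 and 3048. Under that scaling HSD17B10 (-0.19, adjusted p = 0.0941) and SRD5A1 (-0.21, adjusted p = 0.259) were not called under siNT and HSD17B4 was not called under siGATA2 (-0.22, adjusted p = 0.0916), while HSD17B12 gained a call under siNT (0.28, adjusted p = 0.0303). AKR1C3 and HSD17B11 kept their calls and directions.

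**Figure D4:**
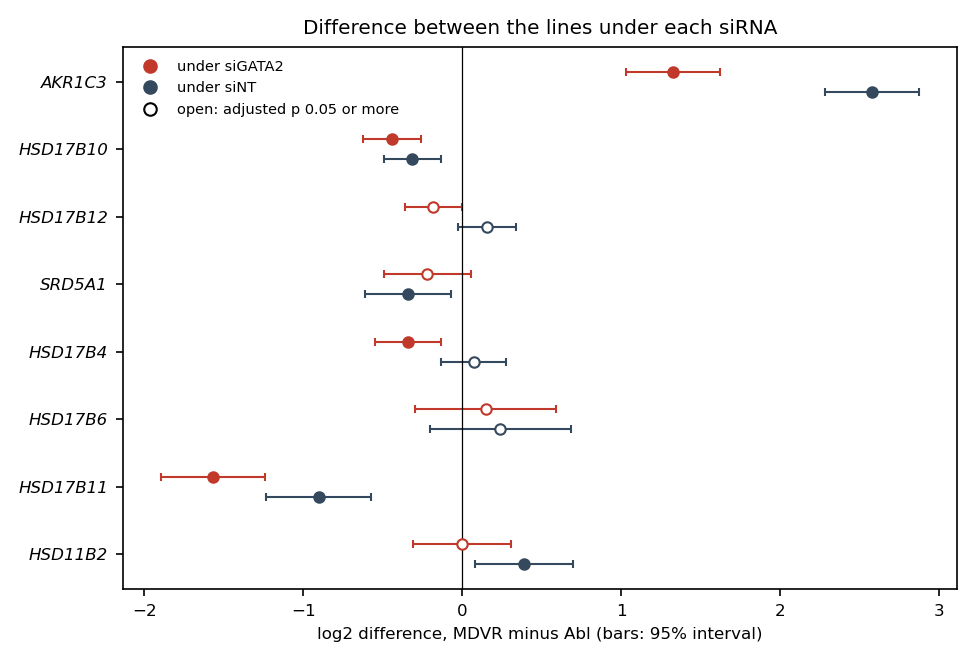
Difference in log2 intensity between the lines (MDVR minus Abl) for each measured enzyme under siGATA2 and under siNT, with 95% intervals; filled points have an adjusted p under 0.05. AKR1C3 lies to the right at 1.33 and 2.58, HSD17B11 to the left at -1.57 and -0.90.

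Of AKR1C3's own family, 4 of 7 listed genes were measured. AKR1C4, a liver-type hydroxysteroid dehydrogenase, rose in Abl by 0.81 (SE 0.19, limma adjusted p = 0.00282), and its change in MDVR was 0.51 (adjusted p = 0.0653). AKR1C2, which inactivates dihydrotestosterone, had log2 differences of 0.09 in Abl and 0.37 in MDVR (adjusted p = 0.805 and 0.254), neither of which passed. For AKR1D1, the steroid 5-beta-reductase, they were 0.27 and 0.11 (adjusted p = 0.0537 and 0.494), which did not pass either. AKR1B10, a retinal reductase, was detected on no Abl siNT array, and its difference in MDVR, 0.58, did not pass (adjusted p = 0.0644). None of the 4 was called in MDVR, where 22.1% of all genes were, and 1 was called in Abl, where 31.2% were. With 4 genes these counts are no result about the family. The median change of the 4 was 0.39 in Abl and 0.44 in MDVR, beside 0.003 and -0.001 over all genes. Like AKR1C3, AKR1C4 and AKR1C2 were higher in MDVR than in Abl, by 1.39 and 0.88 under siGATA2 and by 1.70 and 0.59 under siNT (adjusted p = 0.0306 or lower), and close copies may share these probes. The AKR1C2 arrays overlap under siNT, and that call was lost in 8 of 27 alternatives. AKR1B10 was higher in MDVR under siGATA2 (0.54, adjusted p = 0.0415), a call lost in 6 of 27 alternatives, and was not called under siNT (0.47, adjusted p = 0.0810). AKR1D1 was called under neither siRNA, at -0.22 and -0.06 (adjusted p = 0.0835 and 0.664). Between the lines 55.5% of all genes were called under siGATA2 and 51.1% under siNT.

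Other dehydrogenases and reductases of steroids and retinoids, 12 of 18 of them measured, moved in both directions. In Abl 5 rose and 1 fell (median 0.22), where 31.2% of all genes were called. RDH11, a retinal reductase abundant in prostate, rose in Abl by 0.68 (limma adjusted p = 8.32e-06) and in MDVR by 1.01 (adjusted p = 1.38e-07). HSD17B1, which reduces estrone to estradiol, rose by 1.12 (adjusted p = 2.00e-05) and 0.51 (adjusted p = 0.0245), though the MDVR call was lost in 7 of 28 alternatives. HSD17B13, a lipid droplet enzyme of liver, was detected on all 3 Abl siGATA2 arrays and on no other array. It was at least 1.69-fold higher in Abl siGATA2 than in Abl siNT, with a fitted change of 1.39 (adjusted p = 1.39e-05). The HSD17B13 probe passed the detection filter only through the group where it was high. Its adjusted p and its place among the 5 are therefore no support for a rise. HSDL2 and HSD17B14, named after their values were seen to complete the count, rose by 0.28 (adjusted p = 0.0253) and at least 1.07-fold. The fitted change of HSD17B14 was 0.44 (adjusted p = 0.0387), and both genes lost the call in at least 8 of 28 alternatives. DHRS11, a reductase of 3- and 17-ketosteroids, fell in Abl by 0.82 (adjusted p = 0.000427). In MDVR 2 rose and 1 fell (median 0.13), a share near the 22.1% of all genes called there. The fall was that of H6PD, which supplies NADPH to HSD11B1 (-0.88, adjusted p = 0.00295). H6PD was detected on 1 MDVR siGATA2 and 3 MDVR siNT arrays, so that its size is uncertain, and it was -0.18 on the authors' values (adjusted p = 0.00367).

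Among enzymes that conjugate steroids for removal, 6 of 7 measured UGT2B genes rose in both lines, as did 6.69% of all genes. Of 15 listed, 13 were measured, and 6 rose and 1 fell in Abl (median 0.31), where 31.2% of all genes were called, while 7 rose and 2 fell in MDVR (median 0.33), where 22.1% were. The 6 UGT2B genes that rose, UGT2B4, UGT2B10, UGT2B11, UGT2B15, UGT2B17 and UGT2B28, are glucuronosyltransferases, several of which inactivate androgens, and UGT2B7 was called in neither line. UGT2B28 rose by 1.33 in Abl and 1.12 in MDVR (limma adjusted p = 3.93e-08 and 8.00e-07), and UGT2B10 by 0.91 and 0.81 (adjusted p = 8.84e-07 and 7.03e-06). UGT2B4 rose by 1.54 and 2.07 (adjusted p = 6.80e-06 and 3.70e-07) and was detected on 2 of 3 siNT arrays in each line. On the authors' values the UGT2B4 rise was 0.37 in Abl and 0.64 in MDVR, and both still passed (adjusted p = 2.65e-05 and 5.44e-08). SULT2B1, which sulfates cholesterol and other hydroxysteroids, fell by 1.27 in Abl and by 0.94 in MDVR (adjusted p = 6.36e-06 and 0.000286). The mean of its probes gave -0.57 in MDVR (adjusted p = 0.0539). On the authors' values SULT2B1 stood at -0.51 in Abl and -0.29 in MDVR, and both passed. Without MDVR siNT replicate 3, UGT2B11, UGT2B15 and PAPSS1 no longer passed in MDVR (adjusted p = 0.134, 0.215 and 0.0741). Of 28 alternatives, 10 lost the MDVR call of UGT2B11 and 7 that of UGT2B15. UGT2B probes may read close copies of the family.

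Levels of the UGT2B genes also differed between the lines. UGT2B17, UGT2B15, UGT2B11 and UGT2B10 were lower in MDVR than in Abl, with log2 differences of -2.44, -2.44, -2.37 and -2.10 under siGATA2. Under siNT their differences were -2.46, -2.19, -2.24 and -1.998, and the limma adjusted p was 4.72e-11 or lower in each case. UGT2B28 ran the other way, higher in MDVR by 0.84 under siGATA2 and 1.05 under siNT (adjusted p = 3.11e-06 and 2.06e-07). UGT2B4 was higher in MDVR under siGATA2 (0.79, adjusted p = 0.00199) and was not called under siNT (0.26, adjusted p = 0.296). UGT2B7 was detected on no MDVR array, with fitted differences of -0.73 under siGATA2 (adjusted p = 0.00378) and -0.34 under siNT (adjusted p = 0.168). Between the lines 55.5% of all genes were called under siGATA2 and 51.1% under siNT.

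For the early steps, synthesis from cholesterol, 6 of 16 listed genes were measured. In Abl TSPO, a mitochondrial cholesterol-binding protein, rose by 0.22 (limma adjusted p = 0.0248) and CYB5A, the cytochrome b5 that aids androgen synthesis, by 0.17 (adjusted p = 0.0467), with the TSPO call lost in 6 and the CYB5A call in 18 of 28 alternatives. None of the 6 was called in MDVR. Among all genes 31.2% were called in Abl and 22.1% in MDVR, so counts this small are no result about the 6. Of 6 steroid transporters 2 were measured, and SLCO3A1 fell in MDVR at least 1.13-fold, with no detection in MDVR siGATA2. The fitted change of SLCO3A1 was -0.66 (adjusted p = 0.00432). Of 13 target genes of NRF2, the stress factor to which the AKR1C genes respond, 10 were measured. In Abl SLC7A11, the cystine transporter (0.55, adjusted p = 0.00413), and GCLC, of glutathione synthesis (0.47, adjusted p = 0.00245), rose. There GCLM, the partner subunit of GCLC (-0.39, adjusted p = 0.0162), and PIR (-0.31, adjusted p = 0.0243) fell, and these calls were lost in 5 and 8 of 28 alternatives. The median of the 10 was -0.03 in Abl and -0.10 in MDVR. None of the 10 was called in MDVR, beside 22.1% of all genes there and 31.2% in Abl.

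**Figure D5:**
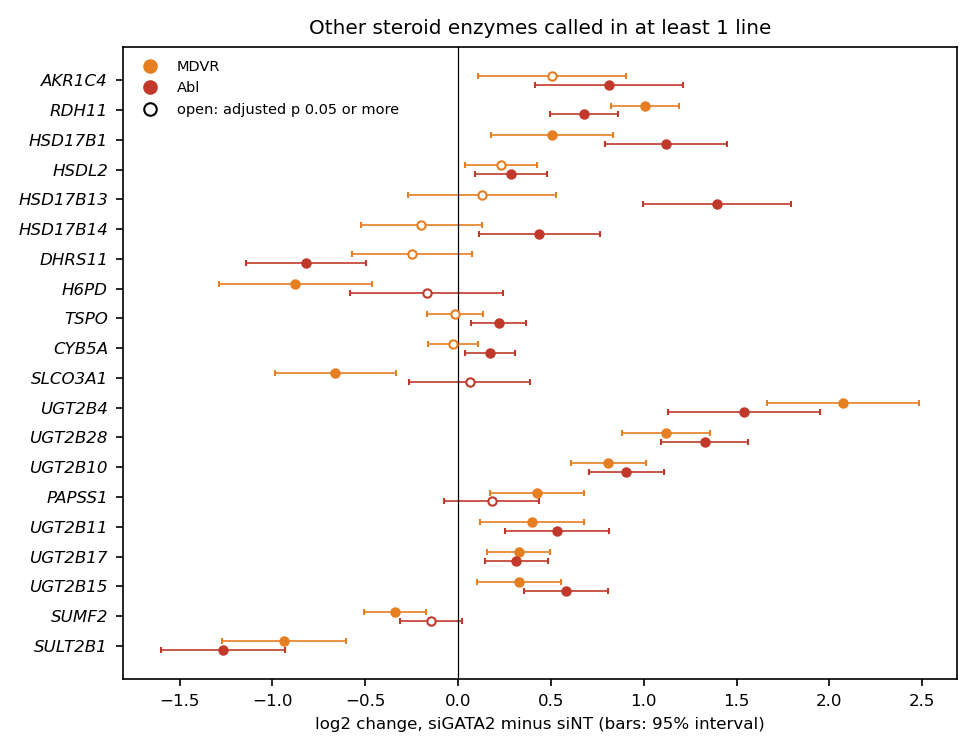
Log2 change (siGATA2 minus siNT) in MDVR and in Abl, with 95% intervals, of the 20 other steroid-handling genes called in at least 1 line, grouped by role; filled points have an adjusted p under 0.05. UGT2B4, UGT2B28 and UGT2B10 lie to the right in both lines and SULT2B1 to the left in both; HSD17B13, HSD17B14 and SLCO3A1 were undetected in a group, so their plotted values are not bounds.

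Over the 12 arrays, the genes whose log2 intensity followed AKR1C3 most closely were MXD4, a partner of MAX (Pearson r = 0.976), TRIM45 (0.976), LGALS8, a galectin (0.975), PRKCD, a protein kinase C (0.975), and KLHDC8B (0.974). Each of the 5 had its highest mean in MDVR siGATA2 and its lowest in Abl siNT. The arrays share their groups, so these values describe the group pattern. For HSD11B2 the closest gene was PHLDB3 (r = 0.865), and for HSD17B6 no gene exceeded 0.800. Among the members, HSD17B10 and HSD17B11 were the most alike (r = 0.935), but only 0.10 after the group means were removed. AKR1C3 had r = -0.30 with HSD17B10 and -0.25 with HSD17B11. Its highest r with a member was 0.65, for HSD17B12, and that was 0.08 after the group means were removed.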

How the data were processed

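RNA of 12 samples was measured on Illumina arrays. The deposited non-normalized table gives, per the file headers, a linear probe intensity without normalization for 47323 probes and a detection p-value for every intensity. The authors also deposited processed log2 values for 23043 probes, made with lumi per the submitters' processing notes, with version and settings not given in the sources used here. On each array those log2 values have a median of 8.02.

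Intensities were background corrected and quantile normalized with neqc (limma 3.58.1, R 4.3.3, offset 16), with the negative-control level taken from the detection p-values. Probes stayed in if detected (detection p under 0.05) on 3 or more arrays. Symbols came from a table that lists 16978 probes, and each gene was read on its kept probe with the highest mean. A linear model of 4 group means (8 residual degrees of freedom, eBayes with trend) was fitted over all 11933 genes, and calls were made at an adjusted p (Benjamini-Hochberg) under 0.05. Second probes were adjusted over all 22539 kept probes. The number of arrays limits the precision: the median SE over all genes was 0.13 within a line. No probe's level was set against another's. For a probe undetected throughout a group, the fold is a lower bound against the lowest detected log2 intensity on those arrays. The bound itself was not tested, and the adjusted p belongs to the fitted change. No replicate block was used, because the replicate numbers in the labels are shared by only 2 pairs per line.

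The rule for names took the 10 members, GATA2, up to 4 genes per role and comparison with the smallest adjusted p, and the 5 genes most like AKR1C3, HSD17B6 and HSD11B2 over the arrays. The members, lists and alternatives were chosen with earlier results of these data known. The fit was tested on simulated data. Alternatives covered background correction, scaling, the authors' values, detection filters, probes, spread estimates, array weights, a minimum fold of 1.5, replicate blocks and leaving out each array.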

Additional observations from a re-analysis of the deposited data

Results flagged for a closer look

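The siGATA2 effect on AKR1C3 differed between the lines by the test of the difference as reported, and this result depended on the background correction. The MDVR effect minus the Abl effect was -1.25 on the log2 scale (95% interval -1.67 to -0.83, limma adjusted p = 0.000554), with a rise of 1.11 in MDVR and 2.36 in Abl. Leaving out any 1 array, with the same background correction, gave -1.38 to -1.14. The raw difference between the siGATA2 and siNT means of AKR1C3 was 291 intensity units in MDVR and 171 in Abl. With no background correction the log2 difference between the effects was -0.25 (adjusted p = 0.276), and on the authors' values it was -0.06 (adjusted p = 0.793).

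The same test also passed for HSD17B13, with a fitted log2 value of -1.27 (limma adjusted p = 0.00622). The HSD17B13 probe was detected on the 3 Abl siGATA2 arrays and on no other array, so this value is set against background in the other 3 groups and is no measured difference between the lines. With no background correction the difference was -0.19 (adjusted p = 0.161).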

How the results depend on the processing

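Of 1091 changes of the 8 members recomputed under the alternatives, 1030 kept their direction where called and their side of the threshold, 45 lost the call, 16 gained it and 0 turned. Testing against a minimum of 1.5-fold called 1 member in Abl (5 as reported), 0 in MDVR (3), 0 in the difference (1), 2 between the lines under siGATA2 (4) and 1 under siNT (5). The same test called 365, 163, 67, 1897 and 1621 genes, beside 3721, 2638, 813, 6622 and 6095 as reported. In the difference 2 members were called with offset 50, with the mean of a gene's probes and without Abl siNT replicate 1. On the authors' values, or with background correction left out, the single member called there was HSD17B11, not AKR1C3. Leaving out an array gave 4 to 5 members and 3061 to 3791 genes in Abl, 2 to 3 and 2096 to 2739 in MDVR, and 1 to 2 and 526 to 748 in the difference. It gave 4 to 5 and 6098 to 6727 between the lines under siGATA2, and 3 to 5 and 5538 to 6130 under siNT, where 3 members were called without MDVR siNT replicate 3. The 526 genes were those without Abl siGATA2 replicate 4. HSD17B13 between the lines under siNT turned to -0.15 with no background correction (0.04 as reported, not called), where the probe was detected in neither group, so neither sign is a measurement. The cause of these changes was not tested, except that the 1.5-fold test requires a larger change.

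The replicate numbers pair nothing in the labels beyond the number: deviations of same-numbered samples of a line correlated at 0.004 to 0.112 over 4 pairs. With a replicate block across groups (5 residual degrees of freedom) or within each line (2), 3 members were called in Abl, since HSD17B4 (adjusted p = 0.0931 and 0.0933) and HSD17B10 (adjusted p = 0.0567 and 0.0824) no longer passed. The difference then called 273 and 360 genes, with AKR1C3 at -1.13 (adjusted p = 0.0400 and 0.0328). With the block within each line HSD17B11 passed in MDVR (0.52, adjusted p = 0.0447) and GATA2 did not pass in Abl (-0.31, adjusted p = 0.0882). Signal limits HSD17B6, HSD17B13 and AKR1C3 in Abl siNT, which lie at or near the lowest detected intensity.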
